A study of Mus musculus with 12 samples.

Results

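The genes described here are the nuclear-encoded members of the respiratory chain and of ATP synthase in mouse bone marrow-derived macrophages given a dicarboxylic acid. They were chosen by symbol, as names beginning with Ndufa, Ndufb, Ndufc, Ndufs, Ndufv, Uqcr, Cox4 to Cox8 or Atp5, without pseudogenes, and by a level of at least 1 CPM (counts scaled to the library total) in at least 3 libraries. The name rule found 89 symbols and the level rule left 81, of 32285 genes in the table. Of these, 44 belong to complex I (36 subunits and the 8 assembly factors Ndufaf1 to Ndufaf8), 8 to complex III, 12 to complex IV and 17 to complex V. Ndufa4 is counted with complex IV, although its name goes back to its first assignment to complex I, and Atp5s, which is not a stable subunit of ATP synthase, with complex V.

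The cells were macrophages grown in culture from bone marrow of wild-type mice. They were kept for 16 h with 5 mM itaconic acid (below IA), with 5 mM malonic acid (MA), with 5 mM methylsuccinic acid (MetSA), or in medium alone (M). Poly(A) RNA was sequenced from 3 biological replicates in each of the 4 groups. The labels do not say whether each replicate had its own mouse, so p-values measure the spread between these samples, which may be technical. Itaconic acid is made by activated macrophages. It is succinic acid with a methylene group, and methylsuccinic acid is its saturated form, without the double bond. Malonic acid has a shorter chain and is known to inhibit succinate dehydrogenase, which is complex II and holds none of the genes described here.

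The respiratory chain sits in the inner mitochondrial membrane. Complex I takes electrons from NADH, complex III passes them from coenzyme Q to cytochrome c, and complex IV gives them to oxygen. The proton gradient built on the way drives ATP synthase, complex V. A few subunits of complexes I, III, IV and V are encoded in mitochondrial DNA and the others by nuclear genes. In activated macrophages respiration is often turned down in favour of glycolysis, and succinate oxidation is a known point of control in these cells.

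Libraries held 46892488 to 54252486 counts, with 16662 to 17246 genes above 0, and 14113 genes, among them all 81 members, were tested. Marker sums in this paragraph are CPM by raw library totals, without TMM scaling. The TMM factors were 0.927 to 0.935 in IA and 1.05 to 1.07 in M, so IA and M sums would stand differently on the TMM scale. The summed level of 10 macrophage markers was 25010 to 27400 CPM in IA, 30880 to 32690 in MA and 27080 to 33880 in MetSA, against 27110 to 29960 in M. Neutrophil markers (6 listed) summed to 18.5 to 40.3 CPM over the 12 libraries and stromal markers (4 listed) to 3.77 to 22.7 CPM. Their part in the results was not tested. In any library 5 lymphocyte markers summed to at most 0.719 CPM and 4 mast cell or basophil markers to at most 1.08 CPM. The summed level of 4 erythroid markers was at most 0.253 CPM in any library. The summed level of 5 dendritic cell markers was 6.27 to 7.02 CPM in IA, 2.49 to 3.12 in MA and 2.87 to 4.73 in MetSA, against 1.75 to 2.95 in M, and its part in the results was not tested. In bulk RNA fewer cells of a type and less RNA per cell cannot be told apart.

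Libraries of the same group differed in these genes, and most of all for short mRNAs. The 46 members whose longest principal transcript is under 1000 bases averaged 0.35 (log2) above their 12-library mean in MetSA replicate 1 and 0.10 in replicate 2, but -0.27 in replicate 3. In M they stood at -0.21, 0.08 and 0.23 in replicates 1 to 3, and in IA replicate 1 at -0.21. The 35 longer members spread less, from -0.09 in IA replicate 1 to 0.09 in M replicate 3. MetSA replicate 3 also differed most from the others of its group over all genes, with a chi-square per degree of freedom of 44.7 and 55.6, against 9.14 to 29.6 among the other replicate pairs. Counts of calls that move by over 1.5 times without a library are therefore given beside the main count.

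**Figure D1:**
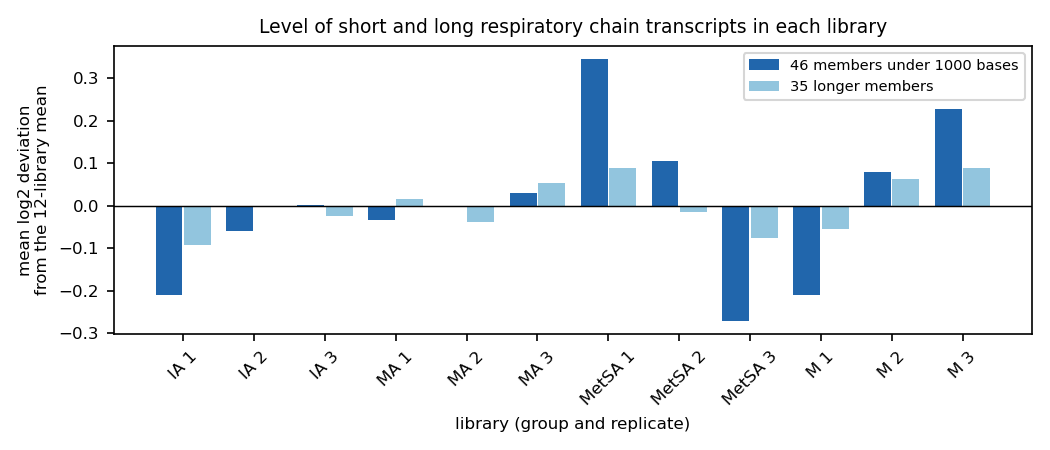
Mean deviation (log2 CPM) of respiratory chain genes from their mean over the 12 libraries, for each library on the x axis, in dark bars for the 46 members with a transcript under 1000 bases and in light bars for the 35 longer members. The short members were highest in MetSA replicate 1 (0.35) and lowest in MetSA replicate 3 (-0.27).

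The mRNAs of the respiratory chain differed little between each acid and medium, while a large part of the transcriptome was called. After IA 0 members were higher and 7 lower of 81 (8.64%) at an adjusted p under 0.05 in edgeR's quasi-likelihood test, where 35.2% of all tested genes were called, 17.9% higher and 17.3% lower. After MA 0 members were called in either direction, where 20.3% of all genes were. At an unadjusted p under 0.05, 12 members passed after IA, 4 after MA and 7 after MetSA, beside 43.8%, 30.6% and 32.3% of all genes. DESeq2 called 0 members higher and 2 lower after MA, where it called 22.2% of all genes. After MetSA 0 were higher and 1 was lower, where 21.2% of all genes were called (12.6% higher and 8.53% lower). The median log2 fold change of the members was -0.12 after IA, -0.05 after MA and 0.03 after MetSA, against -0.03, -0.02 and -0.01 over all genes. Upper-quartile scaling moved the median of all genes after IA to -0.12 and that of the members after MetSA to -0.04. It called 20 members lower after IA, where 5508 of 14113 genes were called, 1918 of them higher. With no filter on low counts 18 members were lower after IA, where 4982 of 22026 genes were called, 2519 of them higher. The members' share of lower calls after IA was thus near that of all genes with upper-quartile scaling and above it with no filter. The 3 comparisons share the M libraries.

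The size of change was small in most members. The median absolute log2 fold change was 0.147 after IA, 0.0731 after MA and 0.0884 after MetSA, against 0.247, 0.175 and 0.185 over all genes. The 95% interval of the log2 fold change lay within -0.5 and 0.5, less than a 1.41-fold change either way, for 43 members after IA, 54 after MA and 50 after MetSA. It lay within -1 and 1 for 80, 81 and 80 of the 81. The members' median standard error, 0.14, was above that of all genes, 0.11. The count of members lower after IA was 4 without IA replicate 1 or without M replicate 3. It was 11 without MetSA replicate 1, 12 without M replicate 1 and 14 without MetSA replicate 3. Without M replicate 1, 4227 of 14450 genes were called after IA, 2218 of them higher. Without MetSA replicate 3 it was 5327 of 14471, 2708 of them higher. In these 2 fits the members' share of lower calls was near that of all genes. The count of members higher after IA was 1 without IA replicate 1. The members' median after IA was -0.017 without M replicate 3. It was 0.027 after MA without M replicate 3. After MetSA it ran from -0.11 without MetSA replicate 1 to 0.10 without MetSA replicate 3, and was also below 0 without MetSA replicate 2 or M replicate 1. After MA 1 member was lower without M replicate 2 or without MetSA replicate 3, and 2 without MA replicate 3.

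**Figure D2:**
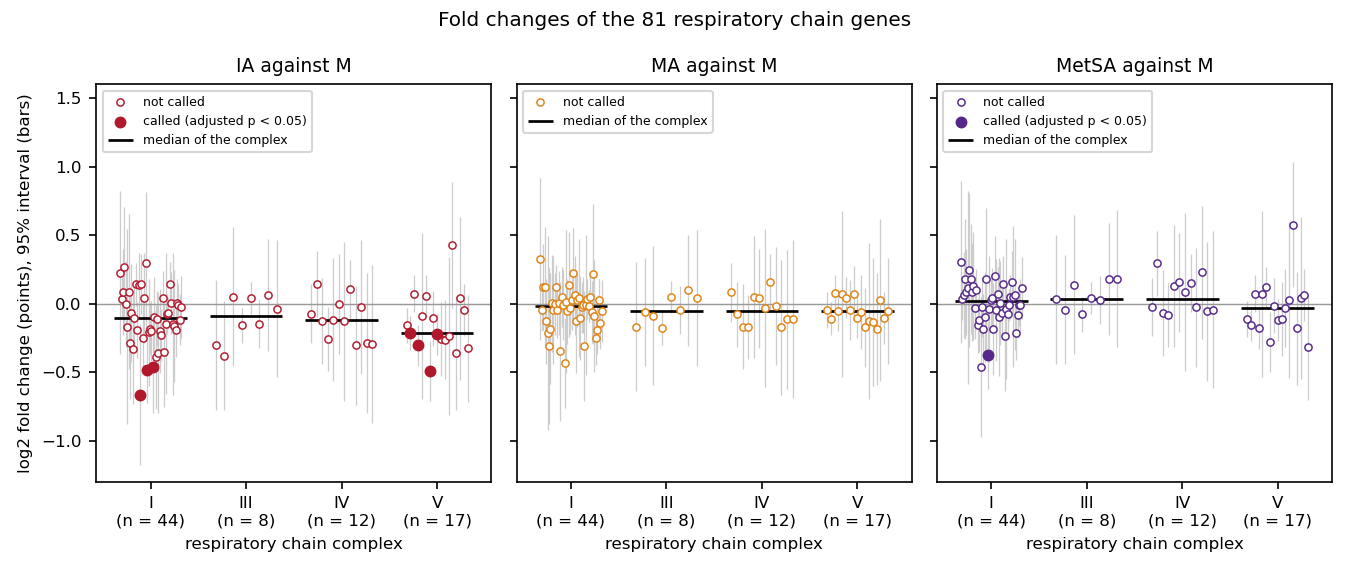
Log2 fold change of each of the 81 members in IA, MA and MetSA against M (panels), grouped on the x axis by complex. Points are single genes, filled where called at an adjusted p under 0.05, grey bars are 95% intervals and black lines are medians. Most members lie within 0.5 of zero, and the 8 filled points, 7 after IA and 1 after MetSA, all lie below it.

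ATP synthase held 4 of the 7 members that were lower after IA. Of its 17 members 0 were higher and 4 lower after IA (23.5%), where 17.9% of all genes were higher and 17.3% lower. After MA and after MetSA 0 of its members were called, where 20.3% and 21.2% of all genes were. The enzyme has a soluble catalytic head, F1, in which beta subunits make ATP, and a membrane part with a ring of c subunits that turns as protons pass. The 3 genes Atp5g1, Atp5g2 and Atp5g3 code for the same mature c subunit behind different import sequences, so their mRNAs add up to 1 supply of protein.

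Atp5g1 (chromosome 11, 96068852 to 96075670, minus strand, mm10) had 21.0, 21.6 and 21.9 CPM in IA, 28.9, 28.2 and 30.9 in MA and 28.1, 26.6 and 20.1 in MetSA, against 27.8, 29.2 and 33.8 in M. The 3 IA libraries lay below all M and all MA libraries, and MetSA replicate 3 lay lower still. Atp5g1 fell after IA (log2 fold change -0.49, SE 0.10, adjusted p = 0.00105), with an interval of -0.71 to -0.27, and was not called against M for the other acids (-0.05, adjusted p = 0.824 after MA and -0.28, adjusted p = 0.0642 after MetSA). Atp5g3 (chromosome 2, 73908447 to 73911326, minus strand) had 63.5, 71.4 and 66.5 CPM in IA, 75.5, 70.0 and 73.6 in MA and 78.6, 72.5 and 65.5 in MetSA, against 77.4, 74.5 and 83.5 in M. It fell after IA (log2 fold change -0.22, SE 0.07, adjusted p = 0.0201), and the call was lost without IA replicate 1, IA replicate 3 or M replicate 3 and with an offset that removes each library's trend with transcript length. Atp5g2 had 43.0, 47.8 and 52.5 CPM in IA, 51.9, 51.6 and 58.9 in MA and 56.3, 50.6 and 45.8 in MetSA, against 46.4, 50.0 and 58.0 in M, with overlapping groups, and was not called after IA (-0.11, adjusted p = 0.419). In Atp5g2 34.7% of the transcript sequence also occurs in other genes, so its counts are uncertain. Per kb of the shortest principal transcript, mean levels in IA were 36.1 CPM for Atp5g1, 94.0 for Atp5g3 and 108 for Atp5g2, against 50.8, 109.9 and 117 in M. Atp5g1 was the lowest of the 3 also per kb of the longest principal transcript (4.56, 92.8 and 65.3 in IA), whose long 3′ end makes its level small, while the order of Atp5g2 and Atp5g3 changed.

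The c-ring genes are shown by the bases before their start because 2 of them fell after IA and Atp5g2 was not called. The stretches are RefSeq promoter windows (GRCm38.p6), written 5′ to 3′ on the gene's strand and ending at the gene's start or at the outer end of its annotated exons. Atp5g1 is shown at chr11:96075671-96075881 and Atp5g3 at chr2:73911327-73911576, both on the minus strand. Capitals mark a match to 1 of 4 motifs searched on both strands, described further below with their shares. The match in Atp5g3 is to TCAAGGTCA, the motif of estrogen-related receptors, on the opposite strand, and the stretch of Atp5g1 holds no match.
Atp5g1: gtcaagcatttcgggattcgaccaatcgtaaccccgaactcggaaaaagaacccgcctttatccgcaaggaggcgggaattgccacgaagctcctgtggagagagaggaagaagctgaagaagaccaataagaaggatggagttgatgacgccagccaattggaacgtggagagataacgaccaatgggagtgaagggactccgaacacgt
Atp5g3: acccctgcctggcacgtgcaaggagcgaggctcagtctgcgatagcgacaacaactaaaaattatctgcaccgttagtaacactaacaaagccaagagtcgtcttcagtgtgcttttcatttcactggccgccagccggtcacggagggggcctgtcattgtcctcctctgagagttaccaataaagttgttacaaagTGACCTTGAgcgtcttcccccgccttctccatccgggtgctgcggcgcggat

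In the F1 head, Atp5b (chromosome 10, 128083273 to 128090391, plus strand), the catalytic beta subunit, had 408, 396 and 389.5 CPM in IA, 439.9, 407 and 439 in MA and 425, 389 and 433 in MetSA, against 477, 459 and 450.4 in M. Its IA values lay below all M values, and it fell after IA (log2 fold change -0.22, SE 0.06, adjusted p = 0.00703), a call lost without IA replicate 3. Atp5a1, the alpha subunit that alternates with beta in the head, had 389, 412 and 382 CPM in IA, 418, 419.6 and 441 in MA and 382, 396 and 443 in MetSA, against 458, 435 and 427 in M and missed the threshold after IA (-0.16, adjusted p = 0.0544). Atp5d (chromosome 10, 80138632 to 80145818, plus strand), the delta subunit of the central stalk that turns inside the head, had 56.6, 56.1 and 55.6 CPM in IA, 67.1, 62.7 and 70.9 in MA and 63.8, 61.0 and 58.7 in MetSA, against 63.0, 68.3 and 76.7 in M. Its 3 IA libraries were the lowest of the 12, and it fell after IA (log2 fold change -0.31, SE 0.07, adjusted p = 0.00235). Its exons overlap those of Cbarp on the opposite strand by 68 bases, and without strand the reads there cannot be told apart. The gamma subunit Atp5c1 (log2 fold change 0.07, adjusted p = 0.421) and the epsilon subunit Atp5e (-0.09, adjusted p = 0.832) were not called. The 4 peripheral stalk members Atp5f1, Atp5h, Atp5j and Atp5o, which hold the head still, ran from -0.26 to 0.06 after IA, and 0 of them were called in an acid against M.

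Among the small subunits of the membrane part, Atp5k (chromosome 5, 108433244 to 108434448, minus strand), subunit e of the dimer interface, had 2.90, 3.15 and 4.62 CPM in IA, 1.98, 3.00 and 2.23 in MA and 4.49, 4.19 and 3.14 in MetSA, against 2.26, 3.02 and 2.64 in M. Its 3 MetSA values lay above all M values, and it missed the threshold there (log2 fold change 0.58, SE 0.22, adjusted p = 0.0678), while DESeq2 called it (adjusted p = 0.0473). Atp5j2, Atp5l and Atp5mpl were not called in any acid against M, with log2 fold changes from -0.36 (Atp5l) to 0.04 (Atp5mpl) after IA. Atp5s was not called either (-0.33, adjusted p = 0.189 after IA and -0.31, adjusted p = 0.259 after MetSA).

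**Figure D3:**
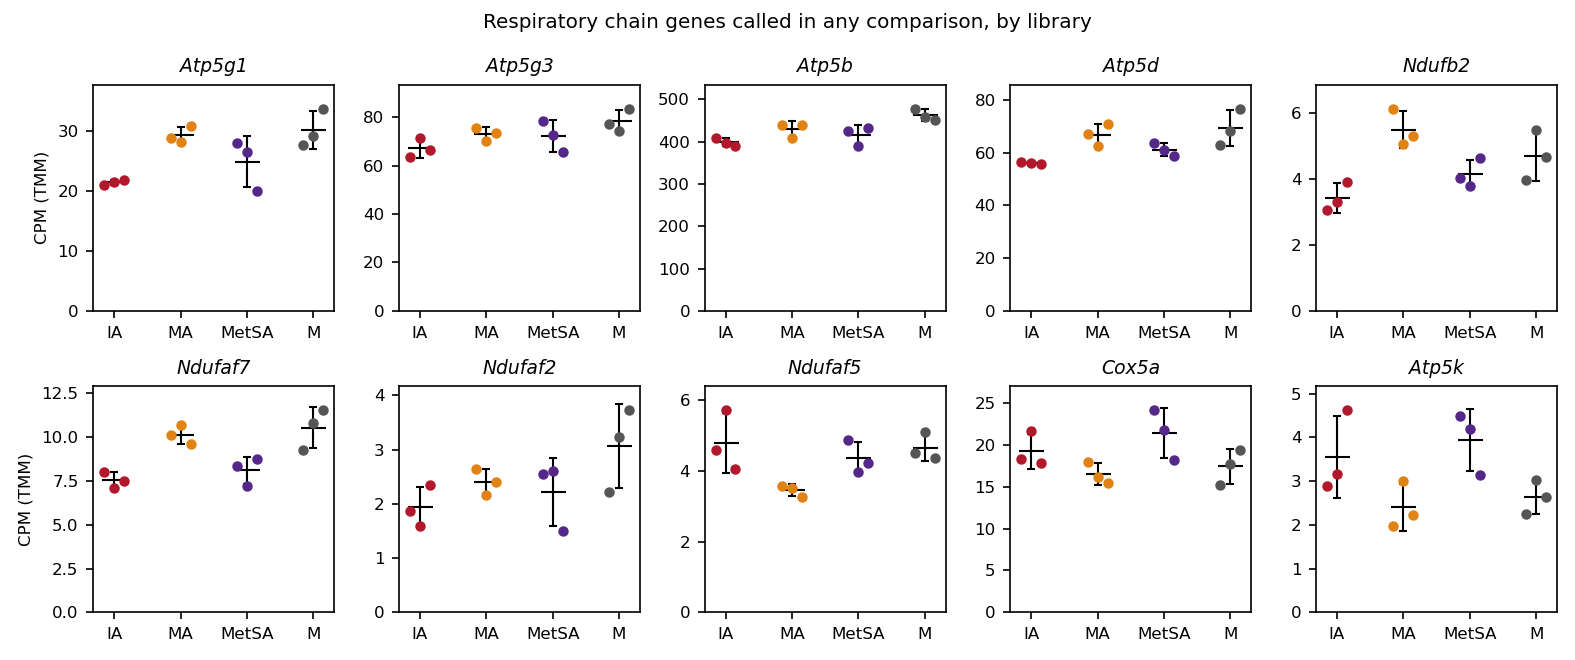
TMM-scaled CPM of the 10 members called in any of the 6 comparisons, by group on the x axis. Coloured points are the 3 libraries of a group, black marks are means and bars are SDs, and each y axis starts at 0. Of the 7 genes lower after IA, all but Ndufaf2 had IA values below all M values. These genes were picked by their calls, so this adds no support. Over all 81 members, called or not, IA and M did not overlap in 19, and the share over all genes was not computed.

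Complex I had 0 members higher and 3 lower of 44 after IA (6.82%), 0 called after MA, and 1 lower after MetSA, beside 35.2%, 20.3% and 21.2% of all genes called. The 7 nuclear-encoded core subunits, which carry the flavin and the iron-sulfur clusters, were not called in any of the 6 comparisons. Over the 12 libraries Ndufs1, the largest subunit, ran from 52.5 to 63.6 CPM and Ndufv1, which binds NADH, from 40.2 to 48.4. Ndufv2 ran from 27.9 to 35.8, Ndufs3 from 28.1 to 34.1, Ndufs8 from 20.0 to 25.7 and Ndufs7 from 16.6 to 23.9 CPM. Ndufs7, which holds the last cluster before coenzyme Q, had values of 16.6, 17.7 and 19.9 CPM after MA against 20.4, 20.4 and 23.9 in M and missed the threshold (log2 fold change -0.25, SE 0.09, adjusted p = 0.0626).

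Accessory subunits surround this core. The 10 of the distal membrane arm had a median log2 fold change of -0.20 after IA, 0.01 after MA and 0.02 after MetSA. In this set Ndufb2 (chromosome 6, 39592574 to 39603382, plus strand) had 3.07, 3.29 and 3.92 CPM in IA, 6.13, 5.07 and 5.29 in MA and 4.03, 3.79 and 4.62 in MetSA, against 3.97, 5.50 and 4.66 in M. All 3 IA values lay below all M values, and the MA values overlapped with M. Ndufb2 fell after IA (log2 fold change -0.46, SE 0.16, adjusted p = 0.0344), a call lost without IA replicate 1 or 2, without M replicate 2 or 3, and with only those groups fitted. Its exons overlap Braf and Gm16272 on the opposite strand and Gm42420 on its own strand, so its counts are uncertain. Of the other members of this set Ndufb8 came nearest to the threshold (-0.23, adjusted p = 0.0534). The 9 members of the proximal membrane arm had medians of 0.00 after IA, -0.01 after MA and 0.05 after MetSA, the 6 of the NADH arm -0.09, -0.06 and 0.12, and the 3 of the quinone arm -0.07, 0.00 and 0.10. Of these 18 members 0 were called in any acid against M. The acyl carrier protein Ndufab1, which is part of complex I and of mitochondrial fatty acid synthesis, was at -0.19, -0.05 and -0.16 after IA, MA and MetSA and was not called. Ndufv3 of the NADH arm had 15.3, 16.2 and 17.5 CPM in IA, 13.9, 16.3 and 17.7 in MA and 20.0, 16.7 and 17.1 in MetSA, against 14.6, 17.2 and 18.02 in M and was not called.

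The 8 assembly factors act on complex I while it is built and are not found in the finished enzyme. Ndufaf7 (chromosome 17, 78937136 to 78948052, plus strand), an arginine methyltransferase in human, had 8.01, 7.08 and 7.51 CPM in IA, 10.1, 10.7 and 9.60 in MA and 8.36, 7.23 and 8.74 in MetSA, against 9.24, 10.8 and 11.5 in M. The IA and MetSA values all lay below the M values, and the MA values overlapped with M. It fell after IA (log2 fold change -0.48, SE 0.12, adjusted p = 0.00285) and after MetSA (log2 fold change -0.38, SE 0.12, adjusted p = 0.0246), and the MetSA call was lost without MetSA replicate 2, M replicate 2 or M replicate 3 and with only those groups fitted. Ndufaf2 (chromosome 13, 108002715 to 108158623, minus strand), a paralogue of Ndufa12 that takes its place in late intermediates, had 1.87, 1.59 and 2.34 CPM in IA, 2.65, 2.17 and 2.41 in MA and 2.55, 2.61 and 1.503 in MetSA, against 2.22, 3.24 and 3.73 in M. Its IA and M values overlapped, and its fall after IA (log2 fold change -0.66, SE 0.25, adjusted p = 0.0423) was lost without IA replicate 1 or 2, MA replicate 3, or M replicate 2 or 3, and with the length-trend offset. Its exons overlap B230220B15Rik on the opposite strand by 1955 bases. Ndufaf5 (chromosome 2, 140170649 to 140203689, plus strand), in human a hydroxylase of an arginine of NDUFS7, had 4.60, 5.71 and 4.05 CPM in IA, 3.58, 3.51 and 3.25 in MA and 4.86, 3.97 and 4.23 in MetSA, against 4.51, 5.09 and 4.36 in M. The 3 MA values lay below all others of the 12, and the difference from M missed the threshold (log2 fold change -0.43, SE 0.16, adjusted p = 0.0608), while DESeq2 called it (adjusted p = 0.0434). Ndufaf1, Ndufaf3, Ndufaf4, Ndufaf6 and Ndufaf8 were not called in any comparison, with log2 fold changes of -0.25 (Ndufaf4) to 0.30 (Ndufaf6) after IA.

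Complexes III and IV had 0 of 20 members called in any acid against M in the main fit, where 35.2% of all genes were called after IA, 20.3% after MA and 21.2% after MetSA. Some alternatives called members of both. With no filter on low counts, Uqcr11, Cox6a1, Ndufa4, Cox8a and Cox7b were lower after IA, where 22.6% of all genes were called. In that fit Cox5a was higher after MetSA, where 14.3% were called. In complex III, Uqcrc1, a core subunit, had 90.8, 102 and 96.8 CPM in IA, 92.4, 93.4 and 100.3 in MA and 102, 99.8 and 104 in MetSA, against 110.0, 102 and 111 in M and came nearest to the threshold (-0.16, adjusted p = 0.0518 after IA and -0.17, adjusted p = 0.0515 after MA). DESeq2 called Uqcrc1 lower after MA (adjusted p = 0.0481). With upper-quartile scaling, a stricter filter, halved counts or the replicate number as a block, Uqcrc1 was lower after both IA and MA. The other core subunit, Uqcrc2, was at 0.04, 0.05 and 0.04 after IA, MA and MetSA, with an interval of -0.07 to 0.16 after IA. The Rieske iron-sulfur protein Uqcrfs1 was at -0.15, -0.05 and 0.03. The 5 small subunits Uqcr10, Uqcr11, Uqcrb, Uqcrh and Uqcrq ran from -0.38 (Uqcr11) to 0.06 (Uqcrh) after IA.

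Complex IV has subunits that come in a form used in most tissues and a form used in muscle, testis or lung, and only the first kind reached the level rule here. The forms Cox4i2, Cox6a2, Cox6b2, Cox7a1, Cox7b2, Cox8b and Cox8c, and the Ndufa4 paralogue Ndufa4l2, stayed below it, with at most 51 counts (0.990 CPM, Cox6a2) in any library and 0 for Cox7b2 and Cox8c. Cox4i1, the regulatory subunit, had 105, 124 and 125 CPM in IA, 119, 131 and 145 in MA and 136, 122 and 108 in MetSA, against 112, 124 and 137 in M. Cox6a1 had 30.1, 33.9 and 33.0 CPM in IA, 33.1, 34.9 and 35.3 in MA and 43.1, 37.5 and 28.7 in MetSA, against 35.5, 39.0 and 41.4 in M. Cox6b1, on the side facing cytochrome c, had 34.6, 41.8 and 38.9 CPM in IA, 45.7, 42.3 and 41.1 in MA and 59.5, 43.9 and 33.2 in MetSA, against 33.5, 44.3 and 47.3 in M. The IA and M values overlapped in Cox4i1 and Cox6b1, while the IA values of Cox6a1 lay below its M values and missed the threshold (-0.26, adjusted p = 0.0836). Cox7a2 had 15.2, 19.8 and 18.8 CPM in IA, 20.2, 18.4 and 18.9 in MA and 27.3, 21.7 and 13.6 in MetSA, against 14.0, 21.2 and 23.6 in M. Its relative Cox7a2l, which joins complexes III and IV into supercomplexes, had 145, 162 and 175 CPM in IA, 152, 161 and 184 in MA and 151, 157 and 189 in MetSA, against 133, 156 and 158 in M. Cox8a, a small subunit, had 29.1, 30.0 and 29.6 CPM in IA, 32.3, 32.8 and 34.8 in MA and 44.0, 34.6 and 25.6 in MetSA, against 25.8, 35.2 and 47.0 in M. In Cox7a2 and Cox8a replicates differed by more than groups did, with M replicate 1 lowest in M and MetSA replicate 1 highest in MetSA. Ndufa4 had 15.4, 20.7 and 22.9 CPM in IA, 21.3, 23.8 and 21.9 in MA and 30.2, 24.8 and 15.2 in MetSA, against 18.3, 26.3 and 27.7 in M, and its paralogue Ndufa4l2 at most 2 counts. The 6 subunits of the common form had a median log2 fold change of -0.19 after IA, -0.02 after MA and -0.03 after MetSA, and 0 were called. Cox5a (chromosome 9, 57521274 to 57532426, plus strand), a subunit on the matrix side, had 18.3, 21.6 and 17.8 CPM in IA, 17.9, 16.2 and 15.4 in MA and 24.1, 21.8 and 18.2 in MetSA, against 15.2, 17.7 and 19.3 in M and missed the threshold after MetSA (log2 fold change 0.30, SE 0.11, adjusted p = 0.072). Without MetSA replicate 3, Cox5a was called there (0.40), as were Cox6c (0.34) and Cox7c (0.45), in which 16.2% of the sequence also occurs in other genes.

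MetSA replicate 3 decided the count for MetSA against M. Without it 6 members were higher and 3 lower, where 20.6% of all genes were called. The higher ones were Atp5k (0.72), Cox7c, Ndufa12 (0.42), Cox5a, Cox6c and Ndufa13 (0.29), and the lower ones Ndufaf7 (-0.43), Atp5b (-0.18) and Atp5a1 (-0.18). The count of members higher after MetSA was also 1 without IA replicate 3 and 2 without M replicate 3. The count of lower members was 2 without MetSA replicate 1 or M replicate 1, and 0 without MetSA replicate 2, M replicate 2 or M replicate 3.

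Summed over its members, complexes I, III and IV lay close together in the 4 groups, and complex V was lowest in IA. Complex I summed to 855 ± 31.6 in IA, 886 ± 30.0 in MA and 902 ± 94.3 in MetSA, against 898 ± 58.4 in M (CPM, mean ± SD, n = 3). Complex III summed to 305 ± 16.2 in IA, 312 ± 10.2 in MA and 328 ± 17.5 in MetSA, against 322 ± 21.3 in M, and complex IV to 511 ± 43.7 in IA, 543 ± 26.1 in MA and 556 ± 64.7 in MetSA, against 532 ± 70.7 in M. For these complexes the values of the IA and M libraries overlapped with TMM scaling. Complex V summed to 1368 ± 25.2 in IA, 1472 ± 53.8 in MA and 1440.0 ± 41.7 in MetSA, against 1527 ± 35.7 in M. Its 3 IA libraries, at 1348 to 1396 CPM, lay below the 3 M libraries, at 1494 to 1565 CPM, and no test was made on the sums. Abundant members, above all Atp5b and Atp5a1, weigh most in this sum. With each member of complex V weighed equally, as mean log2 level relative to the M mean, IA and M overlapped. These means were -0.226, -0.1065 and -0.0756 in IA and -0.191, 0.0425 and 0.148 in M. Scaled by raw library totals instead of TMM, complex V summed to 1273 CPM in IA against 1620 CPM in M, and complex I to 795 in IA against 953 in M. On that scale the IA and M libraries no longer overlapped for complex I (765 to 810.5 CPM in IA against 888 to 1026 in M) or complex III (268 to 294 in IA against 318 to 369 in M).

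**Figure D4:**
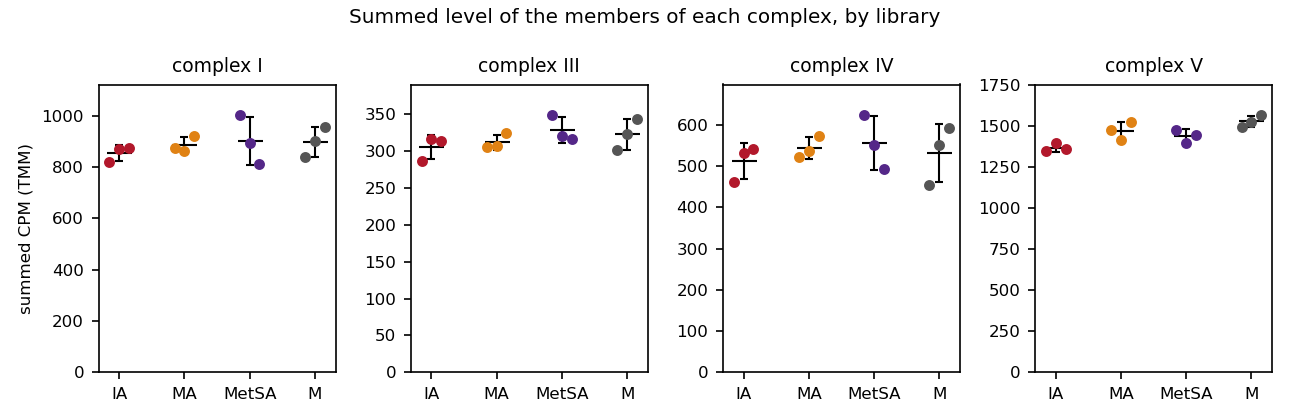
Summed TMM-scaled CPM of the members of complexes I, III, IV and V (panels), by group on the x axis. Points are the 3 libraries of a group, black marks are means and bars are SDs, and each y axis starts at 0. In complex V the IA libraries (1348 to 1396 CPM) lie below the M libraries (1494 to 1565 CPM), and in the other complexes IA and M overlap on this scale, which with raw library totals holds for complex IV but not for complexes I and III. Abundant members weigh most in a sum, and the mean log2 level of complex V overlapped between IA and M.

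Per kb of the shortest principal transcript, the members' median level was 24.9 CPM per kb in IA, 25.3 in MA and 27.2 in MetSA, against 27.0 in M. Atp5b was highest in all 4 groups (208 in IA, 224 in MA and 217 in MetSA, against 241 in M). Atp5a1 (159.6 in IA and 178 in M), Cox4i1 (158 and 167) and Cox7a2l (149 and 138) followed. The SD of Cox4i1 in M (16.9) exceeded its distance from Atp5a1 in M, so these neighbours in the order did not differ beyond their spread. The subunits of complex I were lower as a set, with a median of 19.2 in IA and 21.6 in M. The assembly factors of complex I were lower still, with a median of 4.21 in IA and 4.91 in M. For 8 members, Atp5g1 and Ndufb2 among them, the longest principal transcript is over 1.5 times the shortest, and their place in the order depends on the length used.

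The acids were also compared with each other at the same dose and time, in 3 pairs, with p-values adjusted over all genes within each pair. IA against MA, acids that differ in chain length and in the methylene group, gave 1 member higher and 4 lower of 81, where 34.6% of all genes were called (17.8% higher and 16.8% lower). Ndufb2 (log2 fold change -0.68, SE 0.16, adjusted p = 0.00258), Atp5g1 (log2 fold change -0.45, SE 0.10, adjusted p = 0.00228), Ndufaf7 (log2 fold change -0.43, SE 0.12, adjusted p = 0.00708) and Atp5d (log2 fold change -0.25, SE 0.07, adjusted p = 0.00913) were lower after IA than after MA, and Ndufaf5 was higher (log2 fold change 0.47, SE 0.16, adjusted p = 0.0252). In Ndufb2, Atp5g1, Ndufaf7 and Atp5d the IA libraries did not overlap with the MA libraries, as in 25 of the 81 members, called or not. The share over all genes was not computed. The Atp5d call was lost without MA replicate 3, and the Ndufaf5 call without IA replicate 2, MA replicate 2 or MA replicate 3 and with upper-quartile scaling. The count of higher members was 2 without IA replicate 1, 0 without IA replicate 2 and 3 without MetSA replicate 3. The median log2 fold change of the members was -0.09, and -0.027 without IA replicate 1.

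IA and MetSA, which differ by the double bond of the methylene group, gave 0 called members of 81, where 6.12% of all genes were called (3.97% higher and 2.15% lower). At an unadjusted p under 0.05, 7 members passed, beside 20.3% of all genes. DESeq2 also called 0 members, where it called 11.1% of all genes. The log2 fold change was negative in 68 of 81 members, against 53.1% of all genes, and in 12 of 12 members of complex IV and 17 of 17 of complex V. The median was -0.12 over the members and -0.02 over all genes, and the members' median was -0.012 without MetSA replicate 1 and -0.25 without MetSA replicate 3. The interval lay within -0.5 and 0.5 for 44 members and within -1 and 1 for all 81, and for the other members the interval of the difference reached past 1.41-fold. Without MetSA replicate 3, 5 members were lower after IA than after MetSA, where 3.49% of all genes were called. These were Ndufa7 (-0.64), Uqcr10 (-0.58), Uqcr11 (-0.55), Atp5g1 (-0.35) and Cox6a1 (-0.32).

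MA against MetSA gave 1 member higher and 2 lower, where 26.4% of all genes were called (11.6% higher and 14.7% lower). Ndufaf7 was higher after MA (log2 fold change 0.32, SE 0.12, adjusted p = 0.047). Atp5k (log2 fold change -0.71, SE 0.22, adjusted p = 0.02) and Cox5a (log2 fold change -0.37, SE 0.11, adjusted p = 0.0185) were lower after MA. The Ndufaf7 call held in 10 of 21 alternatives and the Atp5k and Cox5a calls in 17 each. Without MetSA replicate 3 the count was 3 higher and 7 lower, where 26.3% of all genes were called. Without MA replicate 3 or MetSA replicate 2 the count was 0 in each direction. Without MA replicate 1 or 2 it was 0 higher and 1 lower, without MetSA replicate 1 it was 1 higher and 0 lower, and without IA replicate 1, 2 or 3 or M replicate 2 the higher call was lost. The members' median was -0.06, and 0.07 without MetSA replicate 1.

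Other genes that the respiratory chain needs, taken from lists that the name rule leaves out, are given here for comparison. Among 24 tested assembly factors of complex IV, 5 rose and 0 fell after IA, 4 rose and 0 fell after MetSA, and 0 rose and 1 fell after MA. Over all genes 17.9% were higher and 17.3% lower after IA, 12.6% and 8.53% after MetSA, and 10.1% and 10.1% after MA, so the share of this list that rose was near that of all genes after IA and after MetSA. Coa5, needed to assemble complex IV, had 289.7, 285 and 281 CPM in IA, 161, 162 and 165 in MA and 223, 217 and 204 in MetSA, against 152, 159 and 141 in M. The IA libraries lay above the MetSA libraries, and these above all others. Coa5 rose after IA (log2 fold change 0.92, SE 0.06, adjusted p = 3.56e-10) and after MetSA (log2 fold change 0.51, SE 0.06, adjusted p = 2.29e-06). Cox15, which makes heme A, rose after IA (log2 fold change 0.49, SE 0.06, adjusted p = 4.99e-06) and after MetSA (log2 fold change 0.41, SE 0.06, adjusted p = 7.13e-05), and its exons overlap Cutc and Entpd7 on the opposite strand. Sco1, which delivers copper, had 19.1, 19.3 and 18.4 CPM in IA, 13.0, 13.7 and 12.9 in MA and 16.3, 13.2 and 16.3 in MetSA, against 13.1, 12.0 and 12.4 in M and rose after IA (log2 fold change 0.60, SE 0.09, adjusted p = 4.62e-05). The MetSA call of Sco1 (0.29, adjusted p = 0.0314) was lost without MetSA replicate 1 or 3 or M replicate 2 or 3. Cox18, which helps insert a mitochondrially made subunit, had 6.47, 6.17 and 6.48 CPM in IA, 3.06, 2.62 and 3.85 in MA and 6.50, 5.36 and 4.62 in MetSA, against 3.93, 4.33 and 3.96 in M and rose after IA (log2 fold change 0.65, SE 0.16, adjusted p = 0.00377). After MA, Cox10, which makes heme O, fell (log2 fold change -0.43, SE 0.13, adjusted p = 0.0222), a call lost without MA replicate 1 or M replicate 1.

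Among 9 tested assembly factors of complex I outside the name rule, 1 rose and 0 fell after IA, 2 rose and 1 fell after MetSA, and 0 were called after MA, where 35.2% of all genes were called after IA, 21.2% after MetSA and 20.3% after MA. Foxred1, a flavoprotein, had 45.3, 43.6 and 43.2 CPM in IA, 27.9, 28.5 and 29.9 in MA and 43.6, 40.7 and 40.3 in MetSA, against 29.1, 30.2 and 31.3 in M. Its IA and MetSA libraries lay above all MA and M libraries, and it rose after IA (log2 fold change 0.54, SE 0.07, adjusted p = 2.08e-06) and after MetSA (log2 fold change 0.46, SE 0.07, adjusted p = 3.01e-05). Of 6 assembly factors of complex III 0 were called in any acid, and of 4 for complex V 1 rose after IA, Tmem242 (0.25, adjusted p = 0.0286), a call lost without IA replicate 1, M replicate 1 or M replicate 3.

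Among 8 tested carriers and subunits that the name rule misses, 1 rose and 2 fell after IA, 1 rose and 1 fell after MetSA, and 1 fell after MA. Over all genes 35.2% were called after IA, near the share of this list, 21.2% after MetSA and 20.3% after MA. Cycs, cytochrome c, had 43.6, 46.4 and 44.1 CPM in IA, 30.3, 26.5 and 29.0 in MA and 42.8, 35.8 and 33.9 in MetSA, against 31.1, 32.5 and 28.3 in M and rose after IA (log2 fold change 0.54, SE 0.09, adjusted p = 5.46e-05). In Cycs 22.6% of the sequence also occurs in other genes, so its counts are uncertain. Cyc1, cytochrome c1 of complex III, had 30.3, 32.9 and 29.7 CPM in IA, 35.5, 36.5 and 38.4 in MA and 33.1, 33.8 and 33.4 in MetSA, against 36.8, 38.1 and 38.9 in M. Its IA libraries lay below all others, and it fell after IA (log2 fold change -0.29, SE 0.07, adjusted p = 0.00183). Atpif1, the inhibitor of ATP hydrolysis by ATP synthase, had 11.6, 14.5 and 14.0 CPM in IA, 16.4, 17.7 and 16.9 in MA and 19.5, 15.7 and 12.1 in MetSA, against 18.1, 22.6 and 24.9 in M and fell after IA (log2 fold change -0.71, SE 0.15, adjusted p = 0.00157), and 485 bases of its exons overlap Gm12999 on the opposite strand. Of 13 genes of coenzyme Q synthesis 1 rose and 2 fell after IA, beside 35.2% of all genes called. Coq2, the prenyltransferase of that pathway, had 35.9, 30.9 and 33.1 CPM in IA, 16.6, 17.3 and 17.6 in MA and 28.8, 27.1 and 24.7 in MetSA, against 20.8, 20.9 and 22.2 in M. It rose after IA (log2 fold change 0.64, SE 0.08, adjusted p = 3.27e-06) and after MetSA (log2 fold change 0.33, SE 0.08, adjusted p = 0.00507) and fell after MA (log2 fold change -0.31, SE 0.08, adjusted p = 0.00927). Coq8a, an atypical kinase-like protein of the same pathway, fell after IA (log2 fold change -0.75, SE 0.14, adjusted p = 0.000311).

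**Figure D5:**
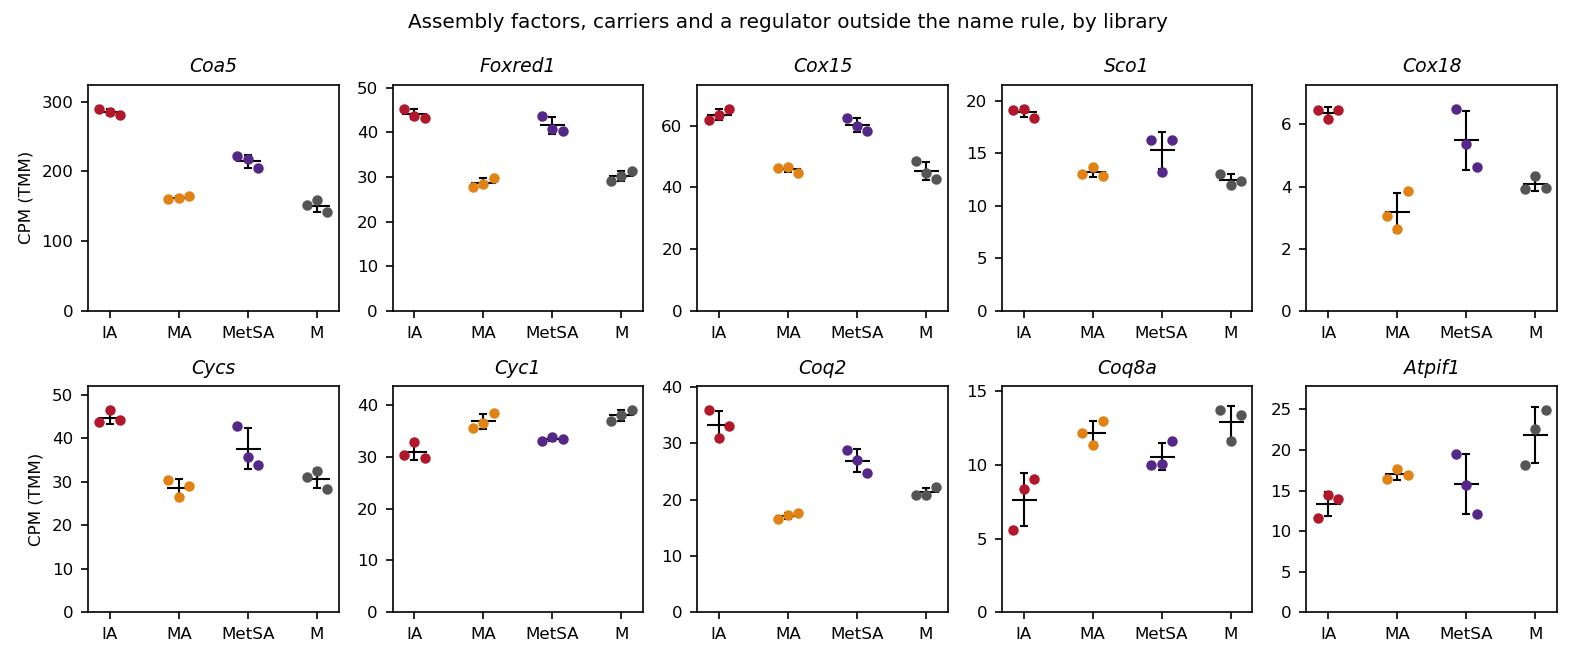
TMM-scaled CPM of 10 genes outside the name rule, by group on the x axis: assembly factors (Coa5, Foxred1, Cox15, Sco1, Cox18), cytochromes c and c1 (Cycs, Cyc1), coenzyme Q genes (Coq2, Coq8a) and the ATP synthase inhibitor Atpif1. Points are the 3 libraries of a group, black marks are means and bars are SDs, and each y axis starts at 0. In Coa5, Foxred1 and Cox15 the IA and MetSA libraries lie above all MA and M libraries.

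Of 16 tested regulators of respiratory genes, 1 rose and 2 fell after IA, 1 rose and 1 fell after MA, and 1 rose and 2 fell after MetSA, beside 35.2%, 20.3% and 21.2% of all genes called. Hif1a, which turns metabolism to glycolysis under low oxygen, had 284, 299 and 275 CPM in IA, 308, 317 and 302 in MA and 243, 261 and 286 in MetSA, against 139, 156 and 137 in M. It rose in every acid (0.99 after IA, 1.101 after MA and 0.87 after MetSA, adjusted p = 1.15e-09, 4.47e-10 and 1.83e-08). Myc, a driver of growth and of mitochondrial gene expression, fell in every acid (-1.36, -0.69 and -0.88, adjusted p = 2.28e-09, 2.35e-05 and 1.28e-06). Of 12 tested mRNAs encoded in mitochondrial DNA, 6 were lower after IA and 3 after MetSA, beside 17.3% and 8.53% of all genes. After MA 0 of 12 were called, beside 20.3%. In mt-Co3, mt-Co2 and mt-Atp6 99.9%, 99.5% and 99.5% of the sequence also occurs in other genes, in mt-Nd4 60.8% and in mt-Co1 30.8%, so their counts are uncertain. Reads of all genes in mitochondrial DNA made up 0.673% to 0.811% of counts in IA and 1.05% to 1.13% in MA. In MetSA they made up 0.759%, 0.833% and 1.28%, against 1.15% to 1.36% in M.

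As a description shared by the members and not used to choose them, their promoter windows were searched for 4 motifs, on both strands, from 250 bases before the RefSeq start to 50 after it. Windows were found for 69 of the 81 members. The NRF-1 motif GCGCNTGCG stood in 23 of 69 members (33.3%), against 7.12% of 27025 genes. Those 27025 are all genes with a window and were not limited to the 14113 tested genes. The members passed a level rule, so these shares and those below compare unlike sets of genes. NRF-1 is a transcription factor known for its role at respiratory chain genes. The YY1 motif AAGATGGCG stood in 8 members (11.6%, against 1.64% of genes), the ETS motif CCGGAAGT, bound by GABP, in 5 (7.25%, against 4.31%), and the motif of estrogen-related receptors TCAAGGTCA in 1, Atp5g3 (1.45%, against 0.466%). NRF-1 matches stood in 11 of 39 members of complex I, 3 of 5 of complex III, 1 of 10 of complex IV and 8 of 15 of complex V. Of the 7 members called lower after IA, 2 held an NRF-1 match, Atp5g3 and Atp5d. Matches on both strands can overlap, because the motif is close to its own reverse complement.

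NRF-1 matches of 7 of the 8 complex V genes that hold one are shown because this motif was the most frequent in the members. The match of Atp5l is not shown. Atp5d and Atp5g3 hold a match and fell after IA, while Atp5g1, Atp5b, Ndufb2, Ndufaf2 and Ndufaf7 fell without one. Each stretch is 30 bases on the gene's strand (GRCm38.p6) with the match, or overlapping matches, in capitals. They lie at chr10:80142322-80142351 on the plus strand for Atp5d and, on the minus strand, at chr2:73911295-73911324 for Atp5g3, chr15:102671070-102671099 for Atp5g2, chr2:10080429-10080458 for Atp5c1, chr11:115420040-115420069 for Atp5h, chr5:108434430-108434459 for Atp5k and chr16:91931602-91931631 for Atp5o. A match is a description and not a shown binding site.
Atp5d: agaatcctgtGCGCGTGCGttcttgtggga
Atp5g3: gagccgcaccGCGCTTGCGcgcccagcccc
Atp5g2: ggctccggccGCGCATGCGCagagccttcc
Atp5c1: tgagctcccgCGCACGCGCactgagtcccg
Atp5h: accccgacggCGCAGGCGCcgcgcccgcct
Atp5k: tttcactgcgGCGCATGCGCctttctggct
Atp5o: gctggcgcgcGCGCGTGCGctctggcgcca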

How the data were processed

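Counts per gene were deposited by the authors as raw read counts for 12 libraries of wild-type mouse macrophages, 3 per group, with 0 columns that could not be assigned. STAR, featureCounts and the mm10 genome are named, without versions, per the submitters' processing notes. Library totals were 46892488 to 54252486 counts. No source used here gives the strand setting, and small counts were mostly even, so mates may have been counted singly.

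Genes kept by filterByExpr (14113, holding 99.98% of counts) were fitted with edgeR 4.0.16 (R 4.3.3, limma 3.58.1) by the quasi-likelihood test with robust dispersion and TMM scaling, in 1 fit of the 4 groups with 8 residual degrees of freedom. Calls used a Benjamini-Hochberg adjusted p under 0.05 over all tested genes, in 6 comparisons, and the script was tested on simulated data. CPM values are TMM-scaled, except in the level rule, in the sums of cell type markers and where raw library totals are named. Intervals are 95% and rest on the spread between libraries. Levels per length, exon overlap and sequence shared with other genes (100-base stretches) came from GENCODE M21, and promoters from RefSeq (GRCm38.p6). DESeq2 1.42.0 and 20 other alternatives were run. The length-trend offset and the promoter motifs were chosen after seeing the data, and the NRF-1 and YY1 motifs were shortened after longer forms had been searched.

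Members, lists and roles were chosen with earlier results of these data known. Every member may be named. Values per library were planned for members called against M with an absolute log2 fold change of at least 0.5 and for isoform sets, and those of other called members and of members near the threshold were added after their values were seen. Genes outside the name rule came from 8 lists, up to the 3 smallest adjusted p-values in each direction. Results for some genes are not reported here.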

Additional observations from a re-analysis of the deposited data

How the results depend on the processing

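Across 21 alternatives, 302 of 378 values of the members' counts and medians in the 6 comparisons stayed within 1.5 times the main count or within the spread between libraries. In all 21, Atp5g1, Ndufaf7 and Atp5d remained lower after IA than in M, and Ndufb2, Ndufaf7 and Atp5g1 lower after IA than after MA. Upper-quartile scaling gave 20 members lower for IA against M, 1 lower for MA against M, 5 lower for MetSA against M, 0 higher and 11 lower with a median of -0.17 for IA against MA, and 3 higher for MA against MetSA. It called 39% of all genes for IA against M, 20.2% for MA against M and 23.2% for MetSA against M. For IA against MA it called 37.3% of all genes and for MA against MetSA 27.5%. It also moved the median of all genes to -0.12 for IA against M and -0.11 for IA against MA. The share of higher calls for IA against M moved to 34.8%, against 50.9% with TMM. With no filter on low counts, 18 members were lower for IA against M, and 2 higher and 2 lower for MetSA against M. It gave 3 higher and 9 lower for IA against MA, 1 lower for IA against MetSA, and 0 higher and 5 lower for MA against MetSA. Of all genes, 22.6%, 14.3%, 22.4%, 6.73% and 17.5% were called in these comparisons. A stricter filter gave 1 lower for MA against M and 2 lower for MetSA against M, where 24.4% and 25.8% of all genes were called. DESeq2 gave 2 lower for MA against M, 1 higher and 2 lower for MetSA against M, 3 higher for IA against MA, and 2 higher for MA against MetSA. It called 22.2%, 23.4%, 36% and 28.3% of all genes in these comparisons. Fitting only the 2 groups compared gave 0 lower for MetSA against M, 4 higher and 11 lower for IA against MA, and 0 higher for MA against MetSA. In these fits 16.9%, 40% and 25.4% of all genes were called. Halved counts gave 1 lower for MA against M, and RLE scaling 2 higher for IA against MA, where 22.3% and 34.3% of all genes were called. The length-trend offset, chosen after seeing the data, gave 4 higher for IA against M, 2 higher and 3 lower for MetSA against M, 5 higher for IA against MA, and 1 lower for IA against MetSA. With it 37.1%, 24%, 36.7% and 7.96% of all genes were called in these comparisons. With raw library totals the summed CPM was 795.3 in IA and 916.1 in MA for complex I, 284.2 in IA and 322.6 in MA for complex III, and 1273 in IA and 1620 in M for complex V. The cause was not tested.

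With single libraries left out, IA against M gave 0 to 1 higher, 4 to 14 lower and medians of -0.19 to -0.017. In those fits 28.1% to 36.8% of all genes were called. MA against M gave 0 to 2 lower and medians of -0.10 to 0.027. MetSA against M gave 0 to 6 higher, 0 to 3 lower and medians of -0.11 to 0.10. IA against MA gave 0 to 3 higher, 3 to 5 lower and medians of -0.12 to -0.027. IA against MetSA gave 0 to 5 lower and medians of -0.25 to -0.012. MA against MetSA gave 0 to 3 higher, 0 to 7 lower and medians of -0.18 to 0.075. Of all genes, fits without a library called 14.5% to 22% for MA against M and 14.6% to 20.6% for MetSA against M. They called 28% to 36% for IA against MA, 2.9% to 6.74% for IA against MetSA and 21% to 26.9% for MA against MetSA. The libraries that move a count are named beside it in the results above.

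With the replicate number as a block, 1 member was higher and 2 lower for MA against M, 2 higher and 2 lower for MetSA against M, and 2 higher for IA against MA. Of all genes, 23.1%, 25% and 38.1% were called in these comparisons. For IA against M the block added Uqcrc1, Atp5a1 and Ndufb8 to the lower members, where 39% of all genes were called, against 35.2% without it. Deviations of libraries with the same number correlated at r = 0.0122 to 0.169, above 0 in 18 of 18 pairs, and those of different numbers at -0.113 to 0.0233, above 0 in 5 of 36 pairs. A library correlated best with its own number in 35 of 36 comparisons with another group, the exception being MetSA replicate 3, which had r = 0.0163 with IA replicate 2 and 0.0122 with IA replicate 3. This is a hint from the data that the numbers may mark something shared. The titles give the same replicate numbers in every group but do not say what a number marks. The fit without the block was kept because the labels name no pairing. Of the 18 pairs 2 exceeded r = 0.1, a limit that cannot decide whether the libraries were paired.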
